A study of Drosophila melanogaster with 12 samples.

Results

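Glutathione S-transferases (Gst) and UDP-glycosyltransferases (Ugt, the insect relatives of glucuronosyltransferases) are the conjugating enzyme families described here, as measured in Drosophila melanogaster heads. The members were all genes whose single platform symbol starts with Gst or Ugt, each represented by its probe set of highest mean, which gave 67 of 10844 named genes, 34 Gst and 33 Ugt. The same 67 genes were found by RefSeq symbol. All flies were of 1 genotype, y w (mutant for the pigmentation genes yellow and white). They had lived in cycles of 12 h light and 12 h dark, and were collected every 4 h over a light/dark day (LD, Zeitgeber times ZT4 to ZT24) and a following day of constant darkness (DD, circadian times CT4 to CT24). Each of the 12 arrays held RNA of about 100 to 200 pooled heads, so LD and DD had 6 arrays each and no time point was repeated. Neither age nor sex of the flies is given in the sources.

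Glutathione S-transferases join the tripeptide glutathione to electrophilic compounds, such as insecticides and products of lipid oxidation. UDP-glycosyltransferases join a sugar from a UDP-sugar to small lipophilic molecules, which are then easier to excrete. In insects both families are known from gut, excretory tubules and fat body, and some members act in the antenna, where they are thought to clear odorants.

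The arrays differed in the signal of genes listed as markers of midgut, thoracic muscle, male reproductive tract and fat body. They also differed in a sign of RNA or labelling quality. Whether the signal of any of these markers came from tissue outside the head was not tested. Photoreceptor markers were strong, with 6 of 7 above the 90th percentile of all genes. Of 4 glial markers all lay above the median of all genes, as did 2 of 5 neuronal and 2 of 5 antennal markers. The score of 23 midgut markers, which is the mean over markers of the log2 deviation from each gene's own mean, reached 1.28 at ZT12 and 1.19 at CT12. It was at most -0.867 in all 4 arrays taken at 16 or 20 h. That of 12 thoracic muscle markers ran from -0.890 to 0.000201 in LD and from -0.166 to 1.21 in DD. The muscle markers did not all move together. At CT12 Act88F (9.735) and fln (7.97) had their highest values, while Tm2 (6.085) and up (6.40) had their lowest DD values. For 17 male reproductive tract markers the same measure ran from -0.503 to 0.0687 in LD and from -0.474 to 1.53 (CT12) in DD. For 8 fat body markers it ran from -0.0571 to 0.559 in LD and from -0.758 (CT12) to 0.207 in DD. The lowest mean signal of a midgut marker was 4.66 and that of a muscle marker 3.13 (log2). The 3' minus 5' difference in signal of control transcripts, a sign of RNA or labelling quality, was 3.12 at ZT4, 3.45 at CT12 and 2.64 at CT4, against 1.69 to 2.20 elsewhere (log2).

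The first question was how strongly each family was represented in head RNA. Members were put into signal classes by the mean of their probe set over 12 arrays: low at or below the median of all genes (5.09, log2), high above the 90th percentile (7.18), and middle between them. Probe sets bind with different strength, so a class describes a probe set's signal and not the abundance of one transcript against another. Of 34 Gst genes, 6 were high, 13 middle and 15 low. Of 33 Ugt genes, 1 was high, 8 were middle and 24 were low. Thus 44.1% of Gst and 72.7% of Ugt genes had low signal, beside 50% of all genes, and 17.6% and 3.03% had high signal, beside 1085 of all 10844 genes. Members share arrays and chromosomal clusters, so these shares were not tested.

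Among the delta class, GstD1, which is known to break down DDT, had a mean of 10.50 (log2), at the top of the Gst family. Its lowest, median and highest values were 10.36, 10.64 and 10.88 in LD and 9.88, 10.42 and 10.59 in DD. The other 10 delta genes form a tandem cluster with it. Of these, GstD9 and GstD11 had middle signal and 8 had low signal. The epsilon class of 14 genes had 2 of high, 7 of middle and 5 of low signal. GstE12 (mean 9.37) lay between 9.18 and 9.52 in LD and between 8.67 and 9.63 in DD. GstE9 (8.44) lay between 7.98 and 9.02 in LD and between 7.32 and 8.72 in DD. GstE7 (3.55) and GstE10 (3.50) had the lowest means of the family. GstE10 and GstE1 overlap in the annotation, and the strand that each probe set reads was not examined here.

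The other Gst classes were small. GstS1, the sigma class enzyme known to be abundant in insect muscle, had a mean of 8.01. The omega class genes GstO3 (7.86) and GstO2 (7.51) had high signal, and GstO1 (4.22) had low signal. The probe set of GstO2 is of a type whose probes can match more than 1 transcript. Other probe sets of GstO2 had means of 4.77 and 2.67, below the median of all genes. Both zeta class genes, GstZ1 (5.96) and GstZ2 (5.68), had middle signal; zeta class enzymes are known to isomerise maleylacetoacetate in tyrosine breakdown. GstE14, known as Noppera-bo and needed for ecdysteroid synthesis, had middle signal (6.80). Of the 3 theta class genes, 2 had middle and 1 had low signal.

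Among Ugt genes, Ugt35B1 alone had high signal, with a mean of 7.43, while a second probe set of this gene had a mean of 5.60. Ugt35B1 was described as an antennal enzyme under the name Ugt35b. Ugt36D1 followed with 6.77, Ugt301D1 with 6.46 and Ugt37D1 with 6.36. Ugt303B1 (2.60) and Ugt304A1 (2.54) had the lowest means, near the lowest values of any array (1.92 to 2.12). Ugt35C1, which under the name Ugt86Dd has been linked to nicotine resistance in larvae, was low at 3.61. Ugt35B1 sits in a tandem cluster of 10 Ugt genes, of which 8 had low signal. By proximity, 49 of the 67 members fell into 10 such clusters. The member just above the 90th percentile was Ugt35B1 (7.43) and the one just below was GstE3 (7.14). At the median these were Ugt36A1 (5.10) and Ugt49B1 (5.08).

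**Figure D1:**
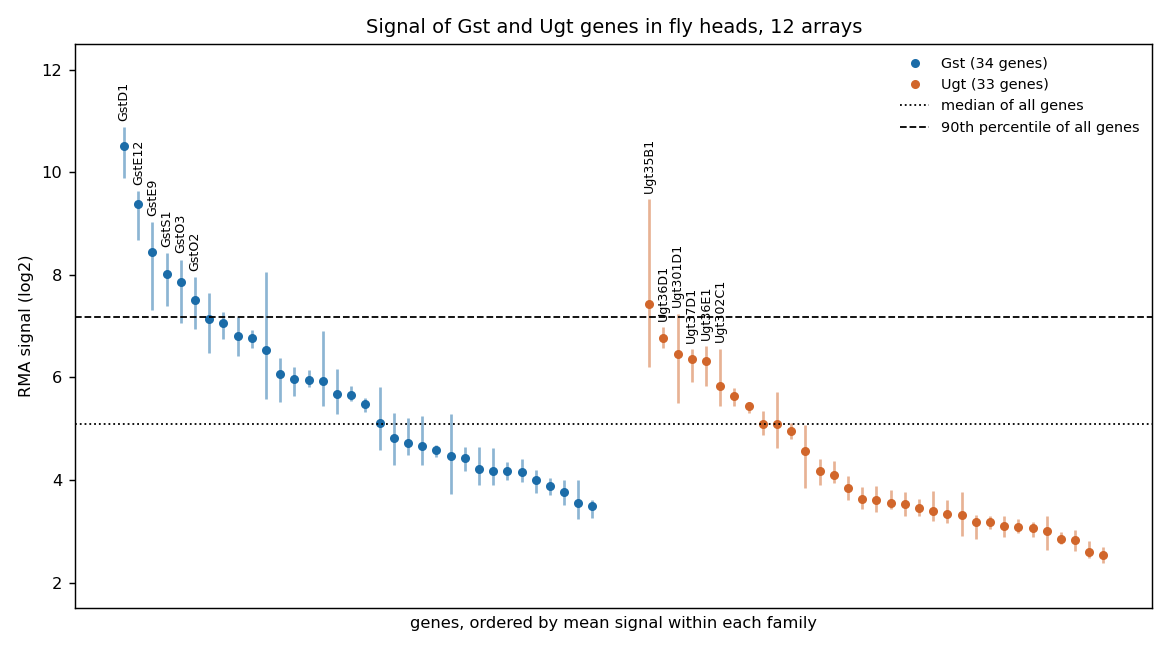
Mean RMA signal (log2, points) and range over 12 arrays (lines) of the 34 Gst and 33 Ugt genes, ordered by mean within each family, with the first 6 of each named. Dotted and dashed lines mark the median (5.09) and the 90th percentile (7.18) of all genes; 6 Gst genes and 1 Ugt gene have means above the dashed line.

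The spread over time also differed among members. Ugt35B1, by its probe set of highest mean, had the widest range, 3.27 (log2) from its lowest to its highest array, which is 9.64-fold. A second probe set of Ugt35B1 lay between 5.33 and 6.19. The next widest range of a member was 2.47, of GstE6 of the epsilon class, from 5.59 at ZT16 to 8.06 at ZT4. Ugt301D1 ranged over 1.74 and GstE9 over 1.70. A range above 1 was found in 10 of 34 Gst and 5 of 33 Ugt genes (29.4% and 15.2%), beside 12.2% of all genes. The median range was 0.752 in Gst, 0.456 in Ugt and 0.480 in all genes. Among members of low signal, the median range was 0.474 in Gst and 0.426 in Ugt, close to the 0.443 of all genes of low signal. Of the members with middle signal, the median range was 0.756 in Gst and 0.544 in Ugt, beside 0.492 in all genes of that class.

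**Figure D2:**
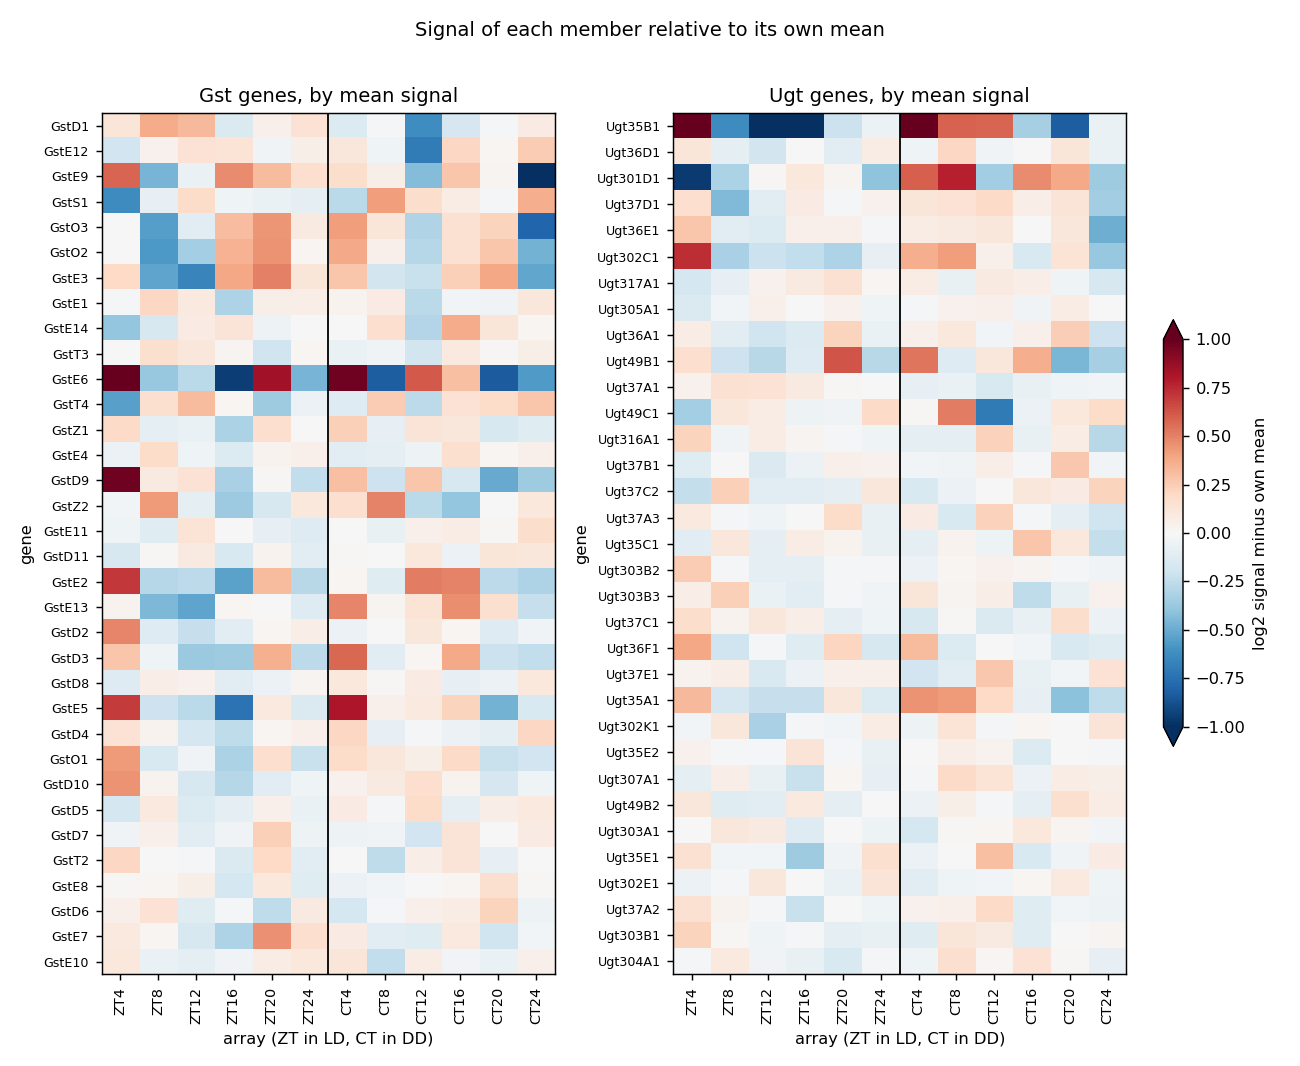
Heat map of each member's signal minus its own mean (log2; red above, blue below, colours saturating at 1 and -1), with arrays in order of collection and genes in order of mean signal. The vertical line separates LD from DD. Ugt35B1 and GstE6, with ranges of 3.27 and 2.47, stand out, and most Ugt rows are pale.

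The next question was whether members followed a 24-h rhythm. A cosine and sine of clock time were fitted to both days together, with day as a covariate, and tested with limma's moderated F test over all 13966 probe sets. No member had an adjusted p under 0.05; the smallest limma adjusted p among members was 0.994, and 0.00716% of all probe sets passed. At an unadjusted p under 0.05 there were 4 of 67 members (5.97%), namely GstD4, GstZ2, Ugt35B1 and Ugt303B3, against 3.34% of all probe sets. Amplitudes below are those of the fitted cosine, on the log2 scale.

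Ugt35B1 had the largest fitted amplitude of the members. In LD its values were 8.77 at ZT4, 6.80 at ZT8, 6.20 at ZT12, 6.23 at ZT16, 7.22 at ZT20 and 7.37 at ZT24. In DD they were 9.47 at CT4, 8.02 at CT8, 8.01 at CT12, 7.10 at CT16, 6.61 at CT20 and 7.36 at CT24. The highest array of each day was thus the 4 h one, and the lowest came at 12 h in LD and at 20 h in DD. Over both days the amplitude was 0.947 ± 0.253 (log2, SE), a peak-to-trough ratio of 3.72, with the peak at 4.28 ± 1.02 h (limma unadjusted p 0.0109, adjusted p 0.994). Fitted by day, the peak fell at 2.32 ± 1.09 h in LD and at 6.20 ± 1.07 h in DD, with amplitudes of 1.07 ± 0.307 and 1.09 ± 0.307. The difference of the rhythm between days had an unadjusted p of 0.104 (limma adjusted p 0.858), so the gap of 3.88 h was not separable from the scatter of single arrays. Both 4 h arrays were also among the 3 of high 3' minus 5' control signal. With ZT4 and CT12 left out the amplitude was 0.856 ± 0.264 and the peak 3.74 h, and with that signal as a covariate they were 0.827 ± 0.189 and 3.57 h. With the midgut score as a covariate the amplitude was 0.987 ± 0.293. That score itself changed with clock time on both days, so a fit with it cannot well separate the score from a rhythm.

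A second probe set of Ugt35B1 did not show the same course. Its mean was 5.60, and its highest values were 6.19 at ZT4 and 6.04 at CT12, the arrays of highest 3' minus 5' control signal. At CT4 it read 5.57, where the first probe set had its highest value. The amplitude from this probe set was 0.174 ± 0.098, with a peak at 4.86 ± 2.15 h (unadjusted p 0.250). Which part of the transcript each probe set reads was not analysed here.

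The adjacent gene Ugt35A1 had low signal, with a mean of 3.31. It read 3.64 at ZT4 and 3.08 at both ZT12 and ZT16, then 3.76 at CT4, 3.73 at CT8 and 2.90 at CT20. Its amplitude was 0.237 ± 0.0965 and its peak 6.23 ± 1.56 h (unadjusted p 0.0906). Ugt302C1, with middle signal in the same cluster, was highest at ZT4 (6.56), CT8 (6.24) and CT4 (6.19). The remaining LD arrays of Ugt302C1 lay between 5.50 and 5.74. Its amplitude of 0.260 ± 0.119, with a peak at 5.21 ± 1.75 h (unadjusted p 0.140), was 0.133 without ZT4. Ugt35C1 of this cluster had an amplitude of 0.108 ± 0.0526, or 0.0691 without CT16, 0.0481 in LD alone and 0.169 in DD alone, with peaks at 14.4 h in LD and 15.2 h in DD. The highest points of the first probe set of Ugt35B1, of Ugt35A1 and of Ugt302C1 thus lay among the 4 and 8 h arrays. All 3 were below their own DD median at CT24, and the share of all genes that were so was not computed. The second probe set of Ugt35B1 differed, with its highest DD value at CT12 (6.04) and 5.68 at CT24. Over both days, 4 of the 10 cluster genes had fitted peaks between 0 and 6 h, 3 between 6 and 12 h and 3 between 12 and 18 h.

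**Figure D3:**
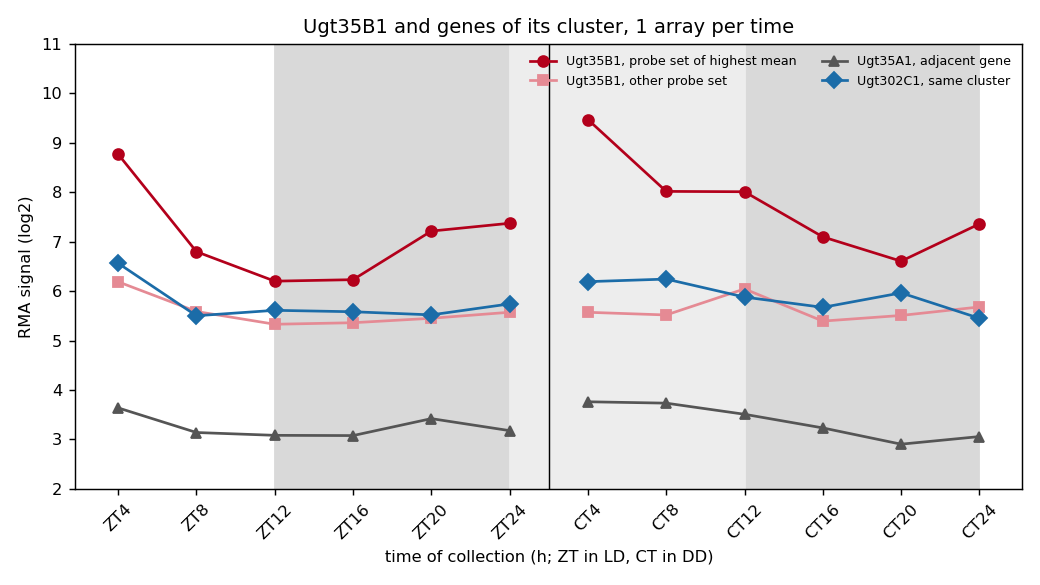
RMA signal (log2) of both probe sets of Ugt35B1, the adjacent gene Ugt35A1 and the cluster gene Ugt302C1 at each time of collection, 1 array per point, with LD left and DD right of the vertical line. Dark shading marks night or subjective night, light shading the time of darkness from ZT24 to CT12. The first probe set of Ugt35B1 reaches 8.77 at ZT4 and 9.47 at CT4, while the second reads 6.19 and 5.57 there.

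Among Gst genes the smallest rhythm p belonged to GstD4 and GstZ2. GstD4, of low signal, lay between 4.17 (ZT16) and 4.57 (ZT4) in LD and between 4.34 (CT20) and 4.64 (CT4) in DD. Its amplitude was 0.162 ± 0.0412, a peak-to-trough ratio of 1.25, and its peak 2.57 ± 0.972 h (unadjusted p 0.00814). GstZ2 was highest at 8 h on both days, with 6.10 at ZT8 and 6.17 at CT8. It was lowest at 16 h on both days, with 5.32 at ZT16 and 5.29 at CT16. Its amplitude was 0.295 ± 0.0768, a ratio of 1.51, and its peak 4.98 ± 0.993 h (unadjusted p 0.00932). The LD and DD peaks of GstZ2 were 5.67 and 4.42 h. With the 3' minus 5' control signal as a covariate its amplitude was 0.352 ± 0.0533, with a limma adjusted p of 0.291. GstZ1, adjacent to GstZ2, had an amplitude of 0.0749 ± 0.0709.

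The other members among the 12 smallest rhythm p had weaker fits. GstE5 had an amplitude of 0.349 ± 0.144 and GstD9 of 0.314 ± 0.128, with peaks at 4.55 and 6.67 h. GstE5 was highest at CT4 (5.28) and ZT4 (5.17), and GstD9 at ZT4 (6.91) and CT4 (6.24). Without ZT4 their amplitudes were 0.239 and 0.219, and that of GstD9 was 0.206 with the 3' minus 5' control signal as a covariate. GstE3 had an amplitude of 0.324 ± 0.137 with a late-night peak at 20.6 ± 1.62 h, and it was highest at ZT20 (7.64) and CT20 (7.53). With the midgut score as a covariate the GstE3 amplitude was 0.127 ± 0.134, and it was 0.533 ± 0.143 in LD alone and 0.155 ± 0.191 in DD alone. GstD10 had an amplitude of 0.165 ± 0.0651 with a peak at 5.72 h, and of 0.0993 without ZT4. The low-signal genes Ugt303B3 and Ugt37A2 had amplitudes of 0.131 and 0.0934, with peaks at 5.53 and 6.39 h. All 12 but GstE3 and Ugt35C1 had fitted peaks between 2.57 and 6.67 h. These 12 were chosen by p, and the share of such peaks among all probe sets of like p was not computed. ZT4 and CT4 are arrays of high 3' minus 5' control signal, whose part in these peaks was not tested.

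Peak times of all members were then tallied without regard to p. In LD the fitted peak lay between 0 and 6 h in 15 of 34 Gst and 13 of 33 Ugt genes (41.8% of members together), beside 29.8% of all genes. In DD the peak lay between 6 and 12 h in 10 Gst and 14 Ugt genes (35.8%), beside 27.0% of all genes. LD and DD peaks lay within 4 h of each other in 20 of 67 members (29.9%), 11 Gst and 9 Ugt, beside 28.0% of all genes. ZT4 was the highest LD array for 25 of 67 members (37.3%), beside 26.4% of all genes, and it is an array of high 3' minus 5' control signal, whose part in this count was not tested. ZT16 was the lowest LD array for 15 of 34 Gst genes (44.1%), beside 18.2% of all genes, and for 7 of 33 Ugt genes (21.2%). CT24 was the lowest DD array for 11 of 33 Ugt genes (33.3%), beside 16.5% of all genes, and for 7 of 34 Gst genes (20.6%). Among the 9 Ugt genes of middle or high signal, CT24 was the lowest DD array for 7 (77.8%), beside 14.2% of all genes above the median.

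**Figure D4:**
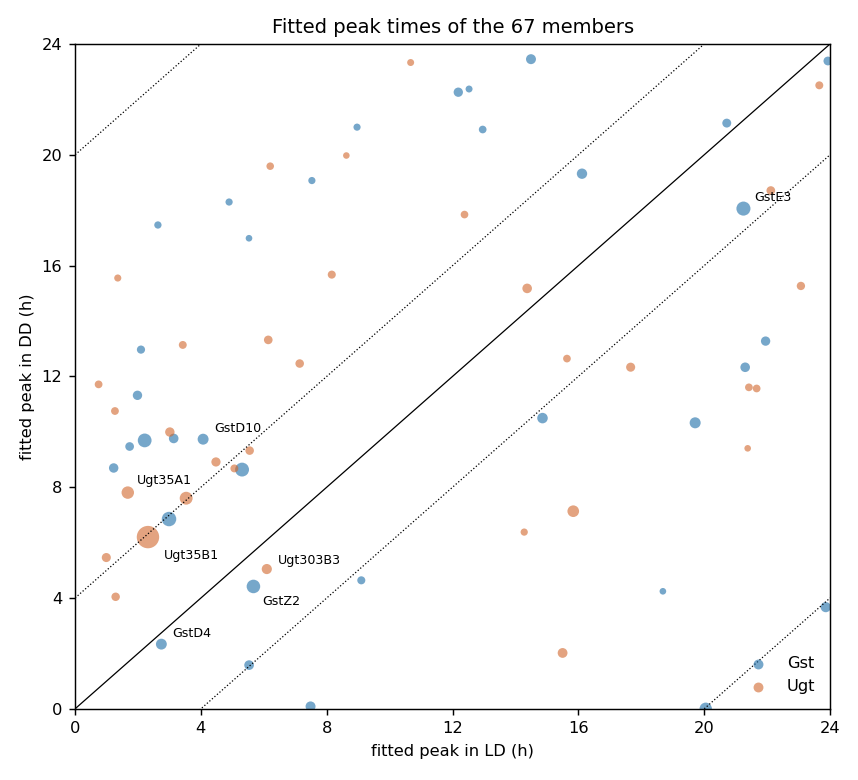
Fitted peak time in DD (h) against that in LD (h) for the 67 members, with point area growing with the amplitude over both days; the solid line is equality and dotted lines mark 4 h on either side, wrapping at 24 h. Of the 67 points, 20 lie within 4 h of equality, and Ugt35B1 lies at 2.32 h in LD and 6.20 h in DD.

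Differences of the rhythm between days were tested with an F test of the day by cosine and day by sine terms. No member had an adjusted p under 0.05 and no probe set did (0% of 13966). At an unadjusted p under 0.05 there were 2 of 67 members (2.99%), Ugt35A1 and GstD10, against 3.53% of all probe sets. For Ugt35A1 the fitted peak was 1.67 ± 1.97 h in LD with an amplitude of 0.190, and 7.80 ± 0.846 h in DD with an amplitude of 0.441 (limma unadjusted p 0.0208, adjusted p 0.858). The amplitude of GstD10 was 0.287 in LD with a peak at 4.07 h and 0.138 in DD with a peak at 9.73 h (unadjusted p 0.0404). Next in order were GstD6, GstD2, GstE2 and GstT3, with unadjusted p between 0.0577 and 0.0867. For these 4 genes the LD and DD peaks lay between 9.33 and 12.0 h apart. GstE2, for example, read 5.82 at ZT4, and in DD its highest values were 5.62 at CT12 and 5.61 at CT16.

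The last question was whether members differed in level between the light/dark day and the dark day. No member had an adjusted p under 0.05, where 0.0573% of all probe sets were called higher and 0.0286% lower in DD; the smallest limma adjusted p of a member was 0.984. At an unadjusted p under 0.05, 1 member was higher in DD (GstE13; 1.49% of members against 2.33% of probe sets) and 2 were lower (Ugt37A1 and GstD1; 2.99% against 2.08%). The sum of 3 was 6 where each clock time was a block, or 8.96% of members, beside 5.33% of all probe sets (745, against 616 before). The added members were GstS1 (p 0.0195), Ugt307A1 (p 0.0366) and Ugt35B1 (p 0.0436), and the smallest limma adjusted p of a member was then 0.727. As DD came after LD in each case, darkness and any other change between the days cannot be told apart. Midgut markers had 20 of 23 positive DD minus LD estimates (median 0.230). Fat body markers had 0 of 8 such estimates (median -0.372), male reproductive tract markers 17 of 17 (median 0.190) and thoracic muscle markers 11 of 12 (median 0.751). Values with the midgut or muscle score as a covariate are given below where they differ by over 1.5 times. Fat body and male tract scores were not fitted. The muscle score was itself mostly higher in DD (-0.166 to 1.21) than in LD (-0.890 to 0.000201). A fit with it therefore cannot well separate the score from the day, and errors widen, as for GstD1 (0.118 without it, 0.191 with it).

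Ugt37A1 lay between 4.95 and 5.10 in LD, with a median of 5.01, and between 4.80 and 4.93 in DD, with a median of 4.88. It was the only member whose LD and DD arrays did not overlap, and 0.129% of all probe sets were separated in this direction. No member was separated with DD higher, where 0.279% of all probe sets were. The difference was -0.146 ± 0.0502 (log2, SE; limma unadjusted p 0.0141, adjusted p 0.984), a 1.11-fold difference. GstD1 was lower in DD at all 6 clock times, with means of 10.36 ± 0.25 in DD and 10.65 ± 0.188 in LD (SD, n = 6 each). The ranges of GstD1 overlapped, and the difference was -0.290 ± 0.118 (unadjusted p 0.0315). Its lowest value, 9.88, came at CT12, and without that array the difference was -0.193. With the muscle score as a covariate it was -0.157 ± 0.191. In bulk RNA, fewer cells of a type and less RNA per cell cannot be told apart.

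GstE13 was higher in DD at 5 of 6 clock times. It lay between 4.30 and 4.86 in LD and between 4.60 and 5.31 in DD, so the days overlapped, and differed by 0.351 ± 0.144 (limma unadjusted p 0.0328), or by 0.591 ± 0.223 with the muscle score as a covariate. Ugt301D1 lay between 5.51 and 6.57 in LD, with a median of 6.31, and between 6.11 and 7.24 in DD, with a median of 6.89. The difference was 0.508 ± 0.235 (unadjusted p 0.0536), and without ZT4 and CT12 it was 0.577 ± 0.175 (unadjusted p 0.00877, limma adjusted p 0.712). Its highest values were 7.24 at CT8 and 7.06 at CT4, and both CT12 and CT24 read 6.11. For the first probe set of Ugt35B1 the difference was 0.662 ± 0.357 (unadjusted p 0.0910), a 1.58-fold higher signal in DD, with DD higher at 4 of 6 times. The second probe set of Ugt35B1 did not show this, with a difference of 0.0375 ± 0.139 (limma unadjusted p 0.792). Ugt307A1, at low signal, was higher in DD at all 6 times, by 0.128 ± 0.0642, or by 0.0509 ± 0.104 with the muscle score as a covariate.

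The GstS1 estimate was 0.246 ± 0.136 (unadjusted p 0.0974), or 0.246 ± 0.0851 with clock time as a block. It lay between 7.38 (ZT4) and 8.19 in LD and between 7.74 and 8.43 in DD. Without ZT4 its difference was 0.152. With the muscle score as a covariate the GstS1 difference was -0.0347 ± 0.199. GstD5, GstD11 and GstE11 completed the 10 members of smallest p, with differences of 0.107, 0.0958 and 0.0825. With the muscle score as a covariate those of GstD5 and GstD11 were 0.0128 ± 0.109 and 0.00585 ± 0.103. Without ZT4 and CT12 they were 0.0321 and 0.0574, and that of GstE11 was 0.043 without CT24.

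As families, Gst and Ugt differed little between the days. The median difference was 0.0346 (log2) over 34 Gst genes and 0.0305 over 33 Ugt genes, where the median over all genes was 0.00117. Positive estimates were found for 19 Gst and 21 Ugt genes, 59.7% of the members together, where 50% of all probe sets had one. Among members above the median of all probe sets, the Gst median was -0.0075 and the Ugt median 0.0674. The Gst median was also negative without ZT16 (-0.00422) and without CT16 (-0.00248). Members share arrays, so no error was computed for the family medians and they were not tested.

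**Figure D5:**
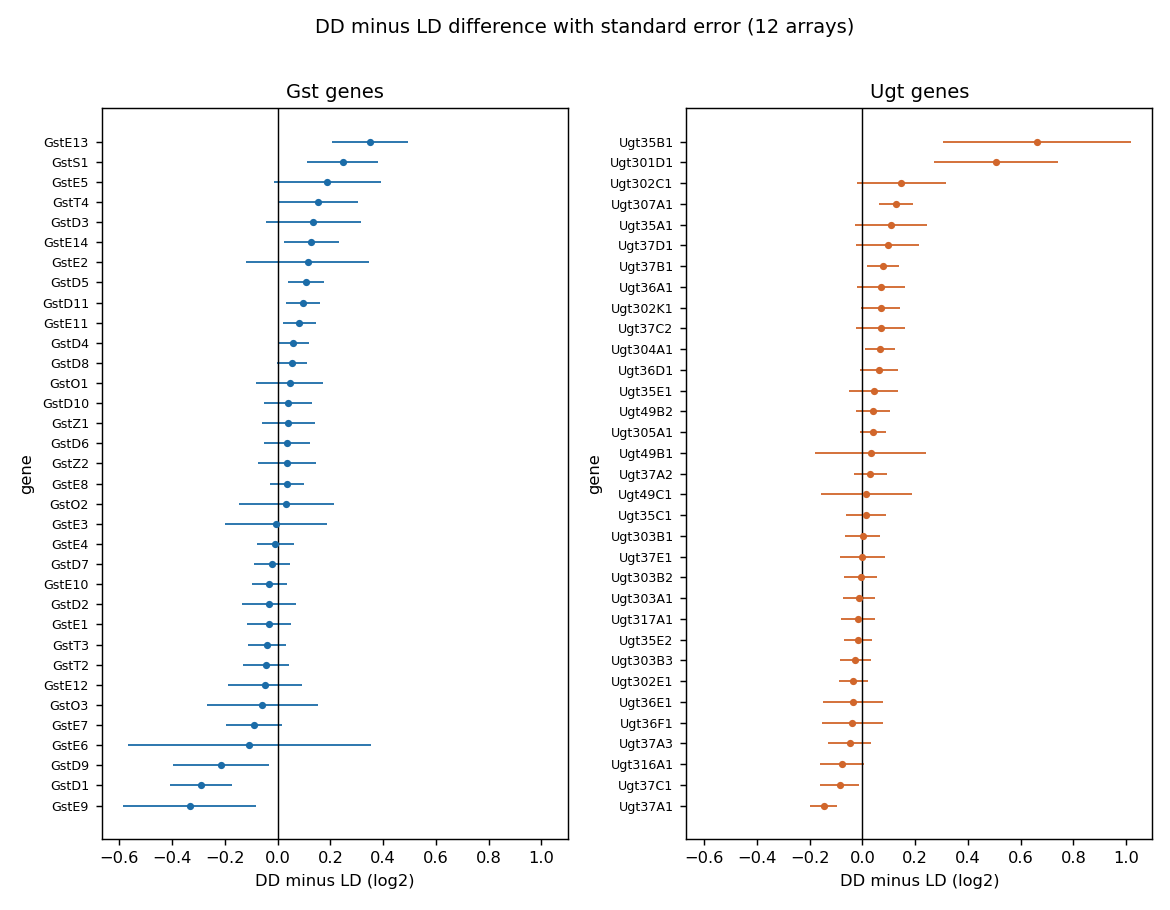
DD minus LD difference (log2, points) with its standard error (bars, from the fit to 12 arrays) for each of the 34 Gst and 33 Ugt genes, sorted within each family. Ugt35B1 at 0.662 (its probe set of highest mean) and Ugt301D1 at 0.508 are at the top, Ugt37A1 at -0.146 and GstE9 at -0.334 at the bottom of their families.

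Other genes around the conjugation pathway were taken from lists of substrate supply or use, regulation and export. Of the 6 measured genes listed for supply or use of glutathione and NADPH, none passed any test after adjustment. Gclm, the modifier subunit of the enzyme that limits glutathione synthesis, had an amplitude of 0.285 ± 0.0888 with a peak at 12.2 h (limma unadjusted p 0.0267). It read 7.78 at ZT12 and 7.64 at ZT16, against 6.76 to 7.40 at the other LD times. Men, malic enzyme, differed by -0.224 ± 0.0925 between DD and LD (unadjusted p 0.0341). In this list 1 of 6 genes had a positive DD minus LD estimate. The score of the list, a mean over its genes, was lowest at CT12 (-0.649) and ZT4 (-0.480), the arrays of highest 3' minus 5' control signal.

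The 4 genes of UDP-sugar supply (UGP, sgl, Pgm1 and Hex-A) had no unadjusted p under 0.05 in any test; sgl, which makes UDP-glucuronate, had an amplitude of 0.131 ± 0.0880. The same was found for 10 regulators. Among them cnc, the activator of oxidative stress and xenobiotic responses, lay between 5.47 and 5.66 over all 12 arrays, and its partner maf-S between 6.16 and 7.78. Of 6 transporters that export drugs and conjugates, Mdr49 had an amplitude of 0.162 ± 0.0477 with a peak at 1.55 h (unadjusted p 0.0192). Mdr65, a transporter known from the blood-brain barrier, differed by 0.519 ± 0.262 between DD and LD (unadjusted p 0.0731).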

How the data were processed

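RMA, per the submitters' processing notes, gave the authors' deposited log2 values. Its version, and which arrays it normalized together, is not stated in the sources. Array medians lay between 4.92 and 4.96, and values were used as deposited. The number of arrays limits the precision. The platform annotation named the probe sets: 12443 had 1 gene, 12394 of them matched to RefSeq Release 6, and 44 control probe sets were left out, which left 13966.

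Tests were run with limma 3.58.1 under R 4.3.3 (lmFit, eBayes, Benjamini-Hochberg over all probe sets at 0.05), with 8 residual degrees of freedom for rhythm and DD minus LD and 6 for rhythm differences. The p-values measure the scatter of single arrays. The delta method gave the errors of amplitudes and peaks. The fits were tested on simulated data. Tandem clusters join members of a family within 30000 bases of each other. Marker and pathway lists were written from general knowledge, and members not found under a single symbol were not analysed here.

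The members and lists were chosen with earlier results of these data known. Named were Ugt35B1, the 12, 10 and 6 members of smallest p for rhythm, DD minus LD and rhythm difference, the 4 highest and 2 lowest means of each family, neighbours of these, and up to 3 genes per pathway list. GstE6, GstE14, GstO1, GstO2, GstO3, GstD3, Ugt36A1, Ugt49B1 and the regulator cnc were named after their values were seen.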

Additional observations from a re-analysis of the deposited data

Results flagged for a closer look

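Of 66 sets of 6 arrays checked (33 named members in LD and in DD), 7 held an array far from the other 5 by Dixon's criterion. Chance alone gives about 1 in 20 sets by this criterion, but most of these members were named by values of the same data. The share of such sets over all genes was not computed. At ZT4, GstD9 read 6.91 (next 6.08), Ugt302C1 6.56 (next 5.74) and Ugt303B1 2.82 (next 2.61), each above the other LD arrays. GstS1 read 7.38 at ZT4, below the others (next 7.91). At CT12, GstD1 read 9.88 (next 10.34) and GstE12 8.67 (next 9.33), each below the other DD arrays. Ugt37D1 read 6.01 at CT24, below the others (next 6.43). ZT4 and CT12, which hold 6 of these 7 values, are the arrays of highest 3' minus 5' control signal (3.12 and 3.45, log2), whose part in them was not tested. Over all genes, ZT4 was the lowest LD array for 30.7% and the highest for 26.4%. CT12 was the lowest DD array for 25.0% of all genes and the highest for 27.1%.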

How the results depend on the processing

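In limma, no member passed an adjusted p of 0.05 in any of the 3 tests under any alternative run. The smallest adjusted p over those alternatives was 0.291 for rhythm (GstZ2, with the 3' minus 5' control signal as a covariate), 0.358 for DD minus LD and 0.511 for rhythm differences. Counts at an unadjusted p under 0.05 moved more, and the share of all probe sets tested follows each in brackets. For rhythm, the 4 members (3.34%) became 2 in the DD day alone (2.71%), Ugt35A1 and Ugt35B1. In the LD day alone there were 6 (4.74%), namely Ugt301D1, GstO3, GstO2, Ugt35B1, GstE3 and GstD10. With the 3' minus 5' control signal as a covariate there were also 6 (4.54%). Among probe sets above the median mean there were 2 of 29 (2.95%), and 3 to 8 (2.13% and 4.25%, without ZT16 and CT24) when single arrays were left out. For DD minus LD, the 3 members (4.41%) became 6 with the control signal as a covariate (7.14%), 6 with clock time as a replicate block (5.33%), 5 without ZT4 and CT12 (4.93%), 1 with the muscle score as a covariate (1.86%), 1 of 29 among probe sets above the median mean (4.83%), and 1 to 6 (3.12% and 4.65%, without ZT12 and ZT20) when single arrays were left out. For rhythm differences, the 2 members (3.53%) became 1 with arrays centred on their medians (3.77%), 4 with the muscle score (4.60%), 0 of 29 among probe sets above the median mean (3.25%), and 0 to 6 (2.59% and 9.73%, without CT20 and ZT24) when single arrays were left out. The cause of these moves was not tested, except that fewer probe sets were tested above the median mean. The peak of Ugt35B1 was 2.32 h in the LD day alone and 6.20 h in the DD day alone, and 3.61 to 4.89 h when single arrays were left out. Its amplitude was then 0.756 to 1.08. With single arrays left out, the Gst median of DD minus LD ran from -0.00422 to 0.0581 and the Ugt median from 0.00435 to 0.0445. The DD minus LD estimate of GstS1 turned to -0.0347 with the muscle score as a covariate. After a further quantile normalization each count of a signal class stayed within 1.5 times its value. Members by RefSeq symbol were the same genes, so that alternative gave no other value. Signal over background was not measured, which limits what can be read from members of low signal.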

Other observations

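Members that share a course over the arrays were noticed after their values were seen and were not tested. GstE6 had its 5 highest arrays at ZT4, CT4, ZT20, CT12 and CT16 (8.06, 7.50, 7.37, 7.14 and 6.83), and the other 7 arrays lay between 5.59 and 6.26. The same 5 arrays were the highest for 6 of 67 members (8.96%), namely GstE6, GstE2, GstE5, GstD3, GstZ1 and Ugt49B1, beside 211 of 10844 genes (1.95%). Of these, GstE2, GstE5 and GstE6 lie in 1 tandem cluster, while the other 3 lie elsewhere. These arrays span both days and the times 4, 12, 16 and 20 h. They include ZT4, CT4 and CT12, the 3 arrays of high 3' minus 5' control signal (3.12, 2.64 and 3.45, log2), whose part in this course was not tested. GstE6 itself defined the set and is counted among the 6 members.

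A second course was shared by GstO3, GstO2, GstE3 and GstE9. Their 4 lowest arrays, a set defined by GstO3, were ZT8, ZT12, CT12 and CT24, which held for 116 of 10844 genes (1.07%). GstO3 read 7.31, 7.74, 7.56 and 7.06 there and 7.85 to 8.30 in the other 8 arrays. GstO2 read 6.94, 7.17, 7.22 and 7.04 there and 7.52 to 7.96 elsewhere. Of these genes GstO2 and GstO3 are neighbours, and the probe set of GstO2 is of the Affymetrix type whose probes can match more than 1 transcript. The other probe sets of GstO2, with means of 4.77 and 2.67, were highest at CT4 (5.30) and ZT4 (2.99).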
